A study of Mus musculus with 217 samples.

Results

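In all, 9 lymphocyte genes were followed in endothelial cell (EC) translatomes, that is, in RNA pulled from whole tissue with ribosomes tagged in ECs. The 9 genes were chosen by name from 52550 gene ids counted, as Cd3d, Cd3e, Cd3g and Lck for T cells, Cd79a, Cd79b and Ms4a1 for B cells, Nkg7 for natural killer (NK) and cytotoxic cells, and Cd52 for lymphocytes and other leukocytes. Each of the 9 has a row in every count table. The mice were adult C57BL/6J animals of genotype Cdh5CreERT2/+; Rpl22HA/+, called RiboTagEC, in which a tamoxifen-inducible Cre driven by the Cdh5 promoter switches on an HA-tagged ribosomal protein in cells that express Cdh5. All groups, controls included, carried both alleles and had received 5 mg of tamoxifen by gavage 4 times from an age of 4 to 6 weeks. Brain, lung and heart were taken at 0 hr (baseline, from mice injected with PBS) and at 6, 24, 48, 72 and 168 hr after 1 intraperitoneal dose of 10 mg/kg lipopolysaccharide (LPS), a bacterial endotoxin, and the vessels were flushed with PBS before homogenization. Ribosomes were then captured with an antibody against the HA tag, and RNA of other cells in the homogenate can be carried over with them. The question addressed here is how much lymphocyte RNA these translatomes hold in each tissue, and how it moves after LPS.

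The CD3 chains form the signalling part of the T cell receptor, and Lck is the kinase that phosphorylates them once the receptor is engaged. CD79A and CD79B pair in the same way below the B cell receptor, and Ms4a1 encodes CD20, a membrane protein of mature B cells. Nkg7 encodes a granule protein of NK and cytotoxic T cells, and Cd52 a small glycoprotein on lymphocytes that other leukocytes also carry. The lung holds a large store of marginated leukocytes in its capillaries, whereas few lymphocytes enter the healthy brain.

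Data were kept from 80 of 98 libraries, after the sequencing runs of a library had been summed and 18 libraries with under 3% of their reads on genes had been left out. The kept libraries were 28 of brain with 7226796 to 32891759 counts, 28 of heart with 8136031 to 33050750 counts and 24 of lung with 284457 to 43417945 counts. The groups at 0, 6, 24, 48, 72 and 168 hr held 5, 5, 4, 6, 4 and 4 libraries in brain and in heart, and 4, 4, 2, 6, 4 and 4 in lung. The share of reads on genes was lower in lung, with a median of 28.6% against 60.6% in brain and 63.4% in heart. At 6 hr 3 of the 4 lung libraries had 284457, 2678119 and 2745503 counts, so that a gene with 3 counts stands for 10.5, 1.12 and 1.09 counts per 1000000 counts (CPM) there. The summed level of 10 endothelial genes, among them Cdh5, Pecam1 and Tie1, ran from 10774 to 14981 CPM in lung, from 11114 to 12242 CPM in heart and from 2162 to 4791 CPM in brain at baseline, and fell as low as 243 CPM in a lung library at 6 hr. Levels below are CPM, over counts on genes, and log2 fold changes are given with their standard error (SE) from edgeR's quasi-likelihood test (two-sided), with p adjusted over all genes tested by the Benjamini-Hochberg method, with a threshold of 0.05.

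The 3 CD3 genes lie side by side on chromosome 9 of the mm10 genome. Cd3g (ENSMUSG00000002033, minus strand, chr9:44969572-44980431) and Cd3d (ENSMUSG00000032094, plus strand, chr9:44981786-44987339) start 1355 bases apart and are read away from each other, and Cd3e (ENSMUSG00000032093, minus strand, chr9:44998740-45009627) follows 11401 bases after Cd3d. The 250 bases before the start of each are shown because the chains did not keep the same proportions in each tissue (below). They are RefSeq sequences of GRCm38.p6, the same assembly as mm10, 5′ to 3′ on the strand of the gene, with capitals marking each match, on either strand, to GGAA (the core of ETS factor sites), CANNTG (E box) or TGTGGT (RUNX), where overlapping matches run together. The windows are chr9:44980432-44980681 for Cd3g, chr9:44981536-44981785 for Cd3d and chr9:45009612-45009861 for Cd3e, whose RefSeq start lies inside the annotated gene.
Cd3g: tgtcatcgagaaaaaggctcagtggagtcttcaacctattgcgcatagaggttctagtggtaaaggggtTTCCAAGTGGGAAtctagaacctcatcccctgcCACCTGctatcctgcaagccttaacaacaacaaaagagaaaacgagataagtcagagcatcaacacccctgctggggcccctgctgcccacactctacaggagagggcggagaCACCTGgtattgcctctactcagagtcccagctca
Cd3d: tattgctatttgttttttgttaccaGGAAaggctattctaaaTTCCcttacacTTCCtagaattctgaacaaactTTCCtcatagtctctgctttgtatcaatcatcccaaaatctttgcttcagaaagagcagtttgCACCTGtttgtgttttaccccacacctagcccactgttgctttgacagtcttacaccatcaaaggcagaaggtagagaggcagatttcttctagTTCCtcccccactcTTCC
Cd3e: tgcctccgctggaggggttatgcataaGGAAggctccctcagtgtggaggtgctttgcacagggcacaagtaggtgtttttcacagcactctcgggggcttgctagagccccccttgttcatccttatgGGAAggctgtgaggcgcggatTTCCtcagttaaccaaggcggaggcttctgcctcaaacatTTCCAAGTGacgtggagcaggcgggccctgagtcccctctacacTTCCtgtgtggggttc

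GGAA occurred 2 times before Cd3g, 6 times before Cd3d and 5 times before Cd3e, and CANNTG 3 times, 1 time and 1 time. None of the 3 windows holds TGTGGT. Over 32851 mouse promoters of the same length 93.4% held GGAA, 66.2% CANNTG and 14.0% TGTGGT, and no more than a description is drawn from the matches.

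At baseline the T cell receptor chains were most abundant in lung ECs. Cd3g was at 6.27, 6.03, 3.80 and 2.78 CPM in the 4 lung libraries, at 0 in 3 of 5 brain libraries and at no more than 0.449 CPM in the other two, and at 0 to 0.0977 CPM in the 5 heart libraries. Cd3d reached 3.27, 1.07, 3.25 and 1.23 CPM in lung, at most 0.509 CPM in brain and at most 0.102 CPM in heart. For both genes every lung library stood above every brain and heart library. The fitted log2 fold change of lung over the mean of the other tissues was 6.54 for Cd3g (SE 0.64) and 4.80 for Cd3d (SE 0.62). Both genes passed the filter on low counts only through lung, where they were high, so that these are given as a description, with no p. In bulk RNA a higher level from more cells of a type and one from more RNA per cell cannot be told apart.

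Cd3e followed another order. It was at 1.26, 0.407, 0.945, 1.10 and 0.583 CPM in the 5 brain libraries and at 1.64, 1.54, 0.345 and 0.736 CPM in the 4 lung libraries. The heart libraries held 0 or 1 count each, at most 0.102 CPM. The brain and lung ranges overlapped, and the difference of lung from brain did not pass the test (log2 fold change 0.88, SE 0.61, adjusted p = 0.22, edgeR), whereas heart lay below brain by 4.35 on the log2 scale (SE 0.79, adjusted p = 0.00023). Against the mean of lung and heart, Cd3e was therefore called higher in brain ECs (1.74, SE 0.56, adjusted p = 0.015), while the fitted value of Cd3g in brain lay in the opposite direction (−2.46, SE 0.83).

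The share of Cd3e among all counts of the 3 CD3 genes put a number on this. It averaged 70.9% ± 26.7 (SD, n = 5) in brain and 13.2% ± 5.82 (SD, n = 4) in lung at baseline, and every brain library, from 40.6% up, exceeded every lung library, up to 17.8%. The exact two-sided permutation test over libraries, which leaves shared mice out of account, gave p = 0.0159, and 0.0357 after adjustment over the 9 shares compared, which were chosen after the data had been seen. Cd3d, Cd3g and Cd79b, on which these shares rest, were high in lung alone at baseline. The p-values of shares, here and below, thus restate a pattern already seen, and no conclusion is drawn from them. Over all time points Cd3e made up 345 of 463 CD3 counts in brain (74.5%, 95% Wilson interval 70.4 to 78.3) and 279 of 2159 in lung (12.9%, 11.6 to 14.4). In heart it was 32 of 129 counts (24.8%, 18.2 to 32.9). These intervals cover counting error only. Exons of Cd3e share 135 bases with Gm48719, a gene on the opposite strand, which had 8 counts over the 5 brain libraries at baseline, where Cd3e had 78, and 0 counts in lung and heart.

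Lck (ENSMUSG00000000409, minus strand, chr4:129548344-129573641) was the most abundant of the T cell genes in each tissue. Per kilobase of exon its median level over all time points was 2.31 CPM in lung, 0.596 CPM in brain and 0.520 CPM in heart, against 0.996 CPM for Cd3d in lung. Both Lck promoters in RefSeq are shown, since Lck changed most after LPS, the distal one at chr4:129573642-129573891 and the proximal one at chr4:129558373-129558622, marked as above.
Lck distal: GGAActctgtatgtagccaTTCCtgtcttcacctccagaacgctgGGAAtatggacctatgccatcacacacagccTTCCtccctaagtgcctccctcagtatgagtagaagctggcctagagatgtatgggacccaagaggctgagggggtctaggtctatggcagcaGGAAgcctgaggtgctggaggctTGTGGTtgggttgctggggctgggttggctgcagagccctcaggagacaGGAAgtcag
Lck proximal: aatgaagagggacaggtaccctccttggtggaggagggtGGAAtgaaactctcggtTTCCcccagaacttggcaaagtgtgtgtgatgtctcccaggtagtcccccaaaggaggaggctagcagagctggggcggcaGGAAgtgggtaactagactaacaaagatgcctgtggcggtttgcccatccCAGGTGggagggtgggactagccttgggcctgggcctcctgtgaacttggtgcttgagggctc

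The distal window holds 6 matches to GGAA and 1 to TGTGGT, and the proximal one 3 to GGAA and 1 to CANNTG. Baseline Lck was at 13.1, 16.4, 10.2 and 4.91 CPM in lung, at 0.913, 1.12, 1.16, 1.18 and 2.65 CPM in brain and at 0.511, 0.684, 0.473, 0.525 and 1.01 CPM in heart. The lung libraries lay apart from the others, while brain and heart overlapped. The log2 difference of lung from brain was 3.72 (SE 0.43, adjusted p = 3.5e-06) and that of heart from brain −0.96 (SE 0.42, adjusted p = 0.067, edgeR), which passed with the mouse as a block (−0.96, adjusted p = 0.025). Lck made up 57.0% ± 6.30 (SD, n = 4) of the summed Lck and CD3 counts in lung but 81.7% ± 6.91 (SD, n = 5) in heart, and the ranges did not overlap (exact permutation p = 0.0159, adjusted 0.0357). The brain share was 52.1% ± 8.54 (SD, n = 5) and did not pass the test against lung (exact permutation p = 0.381, adjusted 0.464).

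Of the B cell receptor chains, Cd79b (ENSMUSG00000040592, minus strand, chr11:106311341-106314762) had the lung pattern. It was at 6.55, 1.73, 1.34 and 4.01 CPM in lung, at 0 to 0.433 CPM in brain and at 0 to 0.195 CPM in heart at baseline. All 4 lung libraries were higher than all others, with a fitted log2 fold change of 4.66 over the mean of brain and heart (SE 0.67). It is given with no p, since at baseline Cd79b was high in lung alone. The highest count was 11 in a brain library and 4 in a heart library.

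Its partner Cd79a (ENSMUSG00000003379, plus strand, chr7:24897381-24902197) was instead at similar levels in brain and lung. The 5 brain libraries had 6.39, 3.05, 3.74, 3.82 and 2.42 CPM (54 to 97 counts in the 3 deeper ones) and the 4 lung libraries 1.91, 2.20, 2.51 and 3.11 CPM. Heart held 1 to 3 counts per library, at most 0.195 CPM. Brain and lung overlapped, with a log2 difference of −0.03 (SE 0.41, adjusted p = 0.95, edgeR), and heart was below brain by 5.19 on the log2 scale (SE 0.51, adjusted p = 5.1e-07). Against the mean of the other tissues, Cd79a was thus higher both in brain (2.61, SE 0.36, adjusted p = 1.8e-05) and in lung (2.56, SE 0.37, adjusted p = 3.7e-05).

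Cd79a made up 93.5% ± 5.90 (SD, n = 5) of the summed Cd79a and Cd79b counts in brain and 46.9% ± 18.4 (SD, n = 4) in lung at baseline. The lowest brain library, at 85.7%, lay above the highest lung library, at 65.3% (exact permutation p = 0.0159, adjusted 0.0357). Ms4a1 (ENSMUSG00000024673, minus strand, chr19:11249675-11266241), a further B cell gene, had 2 counts in all 5 brain libraries at baseline together. The next gene downstream, Arhgef1, starts 715 bases after the end of Cd79a on the same strand and had median levels of 93.4 CPM in brain, 100.3 CPM in lung and 174.7 CPM in heart at baseline. The 250 bases before the RefSeq start of Cd79a, chr7:24897247-24897496, are shown because Cd79a was also the B cell gene that moved in brain after LPS.
Cd79a: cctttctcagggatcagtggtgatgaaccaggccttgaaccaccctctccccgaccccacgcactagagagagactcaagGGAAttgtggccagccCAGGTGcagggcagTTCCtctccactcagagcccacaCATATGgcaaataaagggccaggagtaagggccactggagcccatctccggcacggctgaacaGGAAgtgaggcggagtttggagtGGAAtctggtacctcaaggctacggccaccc

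This window holds 4 matches to GGAA, 2 to CANNTG and none to TGTGGT. Ms4a1 itself was scarce throughout. It had 0, 5, 12 and 15 counts in the 4 lung libraries at baseline (0 to 1.23 CPM) and 2 counts in all 5 heart libraries together, and it did not pass the filter on low counts there. Over all time points it was at 0 in 19 of 28 brain libraries, in 18 of 28 heart libraries and in 9 of 24 lung libraries.

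Nkg7 (ENSMUSG00000004612, plus strand, chr7:43437073-43438249) was at 1.36, 1.45, 0.691 and 2.86 CPM in lung at baseline, against 0 to 0.344 CPM in brain and 0 to 0.204 CPM in heart. Lung stood apart, on 101 counts in lung, 19 in brain and 3 in heart. The fitted log2 fold change over the other tissues was 4.56 (SE 0.66), given with no p since Nkg7, too, passed the filter only through lung. Cd52 (ENSMUSG00000000682, minus strand, chr4:134082448-134095082) was the most abundant member per kilobase of exon, with a median over all time points of 23.6 CPM in lung, 1.93 CPM in brain and 0.880 CPM in heart. At baseline it was at 41.2, 15.0, 9.88 and 9.98 CPM in lung, 0.457 to 2.51 CPM in brain and 0.337 to 0.880 CPM in heart. Its log2 fold change in lung was 4.85 (SE 0.46, adjusted p = 6.9e-07). Exons of Cd52 share 172 bases with Crybg2 on the opposite strand, which had a median of 1.38 CPM in lung, 0.509 CPM in brain and 0.0394 CPM in heart at baseline.

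Each tissue was set against the mean of the others at baseline. By the file names 11 pairs of these libraries come from the same mouse, and with the mouse as a block each edgeR call of a member at baseline was kept. Of the members, 8 passed the filter on low counts. Cd3d, Cd3g and Nkg7 did so only because lung was in the fit, since they passed it in neither brain nor heart alone. Cd79b passed it in brain over all time points, but at baseline it, too, was high in lung alone. The counts that follow are therefore a description. In lung ECs 8 of 8 tested were higher and 0 lower, where 28% of the 17730 genes tested were higher and 34.4% lower. In heart ECs 8 of 8 were lower and 0 higher, where 30.5% of all genes were lower and 27.7% higher. In brain ECs 2 members were higher (Cd3e and Cd79a, against 35.1% of all genes) and 3 were lower (Cd3g, Lck and Cd52, against 23.4%), of which Cd52 missed the threshold without brain replicate 1 (adjusted p = 0.061) or 2 (0.066). Pairwise, 6 of 8 were higher and 0 lower in lung than in brain (26.4% and 37.9% of all genes), 8 of 8 higher and 0 lower in lung than in heart (29.9% and 31.2%), and 2 of 8 lower and 0 higher in heart than in brain (32% and 22.8%). With Ms4a1 untested, Cd3e and Cd79a were thus higher in brain and lung than in heart, while the difference of lung from brain did not pass the test. The other 6 were higher in lung than in brain and heart, while the difference of heart from brain did not pass, except for Lck with the mouse as a block. DESeq2 did call Lck (−1.03, adjusted p = 0.048) and Cd52 (−1.26, adjusted p = 0.049) lower in heart than in brain. The summed level of 6 pan-leukocyte genes (Ptprc, Coro1a, Laptm5, Cd53, Rac2 and Cd48) was 85.4 to 757 CPM in lung, 34.3 to 129 CPM in brain and 8.51 to 15.5 CPM in heart. The lung and brain ranges overlapped, and heart lay below both. The part of carried-over leukocytes in the member levels was not tested.

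**Figure D1:**
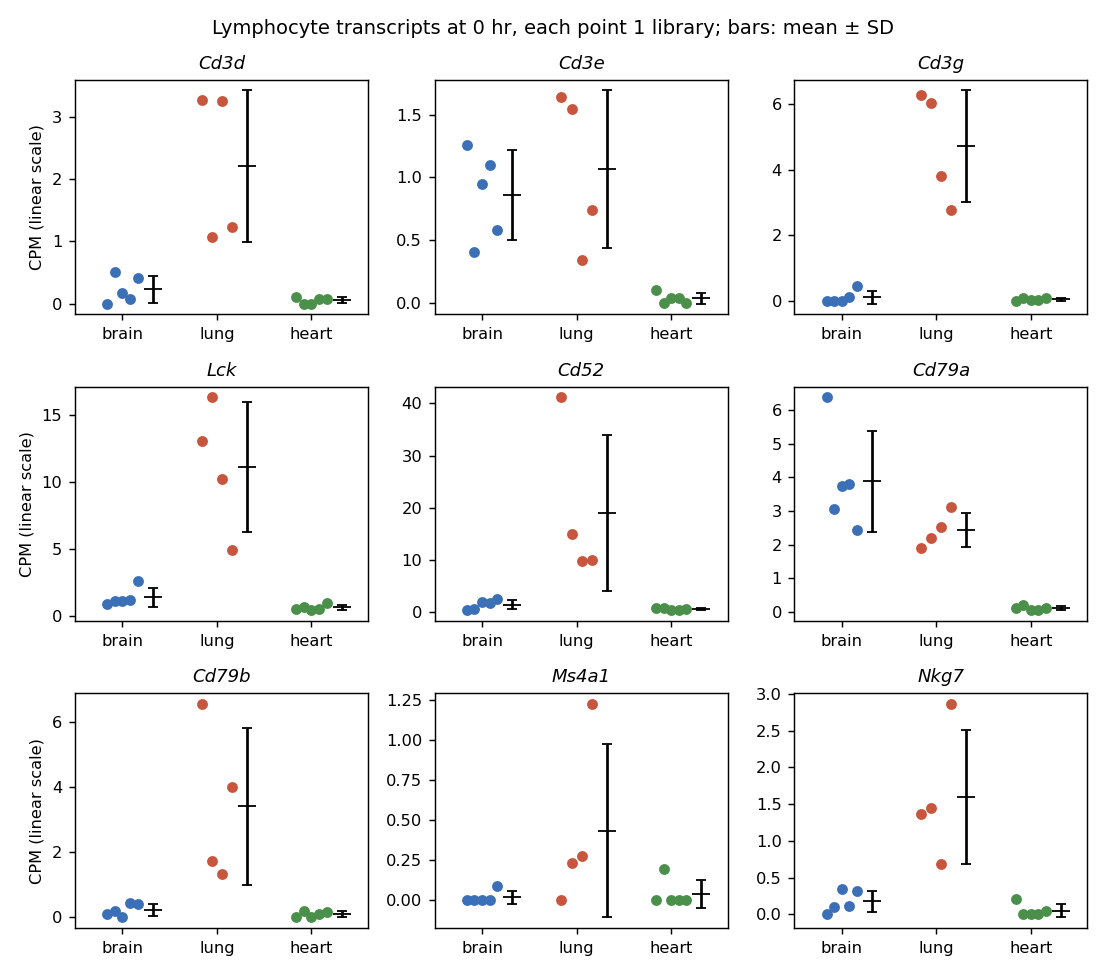
Levels of the 9 lymphocyte transcripts at 0 hr in brain (5 libraries), lung (4) and heart (5), in CPM on a linear axis that differs between panels; each point is 1 library and the bars give the mean ± SD. Cd3e and Cd79a reach similar levels in brain and lung, while the lung points of Cd3d, Cd3g, Lck, Cd79b, Nkg7 and Cd52 lie above those of the other tissues.

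Other genes of the same lineages were counted as whole lists. Of 24 further T cell genes 18 were tested at baseline, 14 of them higher in lung and 0 lower (28% and 34.4% of all genes), with a median log2 fold change of 3.30 beside −0.35 over all genes. Among them were Trbc1, a T cell receptor constant region, at 7.79 (SE 0.71), Ltb, a lymphotoxin, at 7.45 (SE 0.59), and Lat, an adaptor downstream of Lck, at 5.73 (SE 0.67). The summed level of the T cell list had another order, with 915 to 1168 CPM in heart, 428 to 820 CPM in brain and 365 to 548 CPM in lung. Ets1, a transcription factor that ECs also express, made up most of it in heart (852 to 1120 CPM) and lung (230 to 396 CPM), and Thy1, which neurons also carry, had the highest median in brain (504 CPM). All 17 tested of 19 further B cell genes were higher in lung, with a median of 4.73. Vpreb3, a chaperone of the early B cell receptor, was furthest above at 8.33 (SE 0.45), followed by Pax5, the transcription factor of B cell identity, at 7.21 (SE 0.47), and Jchain, the joining chain of secreted immunoglobulin, at 6.45 (SE 0.46). Of 13 further NK and cytotoxic genes 7 of 8 tested were higher in lung (median 3.53), including the protease gene Gzma at 7.51 (SE 0.71). In heart 15 of 18, 17 of 17 and 4 of 8 were lower, where 30.5% of all genes were, with medians of −3.77, −3.12 and −2.89 beside −0.07 over all genes. Genes that passed the filter on low counts through lung alone can be among them, as among the members.

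In brain, of 18 T cell genes 7 were higher and 8 lower, where 35.1% and 23.4% of all genes were, with a median of −0.54 beside 0.22 over all genes. The higher ones included Bcl11b at 4.88 (SE 0.46) and Tcf7 at 3.57 (SE 0.43), transcription factors that are needed in T cells but also expressed in other cells, and the lower ones Ltb at −3.91 (SE 0.69) and Trbc1 at −3.63 (SE 1.25). One of 17 B cell genes was higher and 7 lower, Igkc, the kappa light chain constant region, at −2.64 (SE 0.79). The 5 lower NK and cytotoxic genes included Klrb1c at −3.94 (SE 0.80), which encodes NK1.1, while Eomes, a transcription factor of NK cells that is also known from neurons, was higher at 5.08 (SE 0.46). Summed levels of 4 neuronal genes in the brain libraries at baseline ran from 1159 to 4072 CPM, and their part in these genes was not tested. The calls for lower in brain are set against a mean that includes lung, where most tested genes of these lists were higher. They do not place brain below heart, and genes that passed the filter on low counts through lung alone can be among them.

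After LPS the change furthest from baseline among the members was that of Lck in heart ECs. At 6 hr Lck stood at 11.2, 5.97, 21.3, 6.57 and 0.0761 CPM in the 5 heart libraries, that is, 250, 143, 425, 148 and 1 counts, against 0.473 to 1.01 CPM (5 to 25 counts) at baseline. All but replicate 5 were above every baseline library, and replicate 5 was below them all. The log2 fold change was 4.24 (SE 0.73, adjusted p = 0.00015, edgeR; 22.4% of the 16024 genes tested were higher and 20.3% lower). Replicate 5 also had 616 CPM of 8 summed LPS response genes (Sele, Selp, Icam1, Vcam1, Socs3, Lcn2, Cxcl1 and Il6), where the other 4 had 9812 to 16032 CPM and the baseline libraries 302 to 398 CPM, and it came from another library series, read from the file names. Within that of the other 4, series 2, baseline Lck was 0.473 to 1.01 CPM and Lck at 6 hr 5.97 to 21.3 CPM.

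The CD3 genes stayed near 0. Over the 5 heart libraries at 6 hr they had 17 counts in all, beside 967 counts of Lck, and at baseline 13 beside 63. Lck thus made up 98.1% ± 2.32 (SD, n = 5) of the summed Lck and CD3 counts at 6 hr, above the 81.7% ± 6.91 (SD, n = 5) at baseline in every library (exact permutation p = 0.00794, the smallest this design can give, adjusted 0.0357). The share in replicate 5 rests on 1 count. The genes on either side of Lck had medians of 7.43 CPM at 6 hr after 10.0 CPM at baseline (Fam167b) and of 7.23 CPM after 6.66 CPM (Hdac1). Lck shares 25 exon bases with the microRNA gene Mir8119, which had 0 counts.

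At 24 hr Lck was at 2.28, 2.35, 4.25 and 3.71 CPM in heart, above every baseline library (log2 fold change 2.31, SE 0.75, adjusted p = 0.039; 9.07% of all genes higher, 7.11% lower). This call was lost when any of the 9 heart libraries at 0 or 24 hr was left out, with adjusted p from 0.0503 to 0.10. Lck at 24 hr also missed the threshold with limma-voom (2.41, adjusted p = 0.13), with the replicate block (2.17, adjusted p = 0.12) and without 168 hr replicate 4 or 5 (adjusted p = 0.051 each). It stood at 1.09 to 3.29 CPM at 48 hr, at 1.05 to 1.90 CPM at 72 hr and at 1.03 to 2.09 CPM at 168 hr, and these changes did not pass the test (adjusted p = 0.22, 1 and 0.99). Over all genes 0.275% were higher at 72 hr and 0% lower, and 0% moved either way at 168 hr. In brain Lck at 6 hr was 4.25, 3.17, 5.66, 2.27 and 0.884 CPM, where 3 of 5 libraries exceeded the highest baseline library, and its log2 fold change of 1.22 (SE 0.42) missed the threshold (adjusted p = 0.092; 4.21% of the 19234 genes tested in brain were higher and 2.23% lower). It passed over all libraries with DESeq2 (1.26, adjusted p = 0.035) and with no low-count filter (1.27, adjusted p = 0.044), and in edgeR without replicate 6 (1.52, adjusted p = 0.011).

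**Figure D2:**
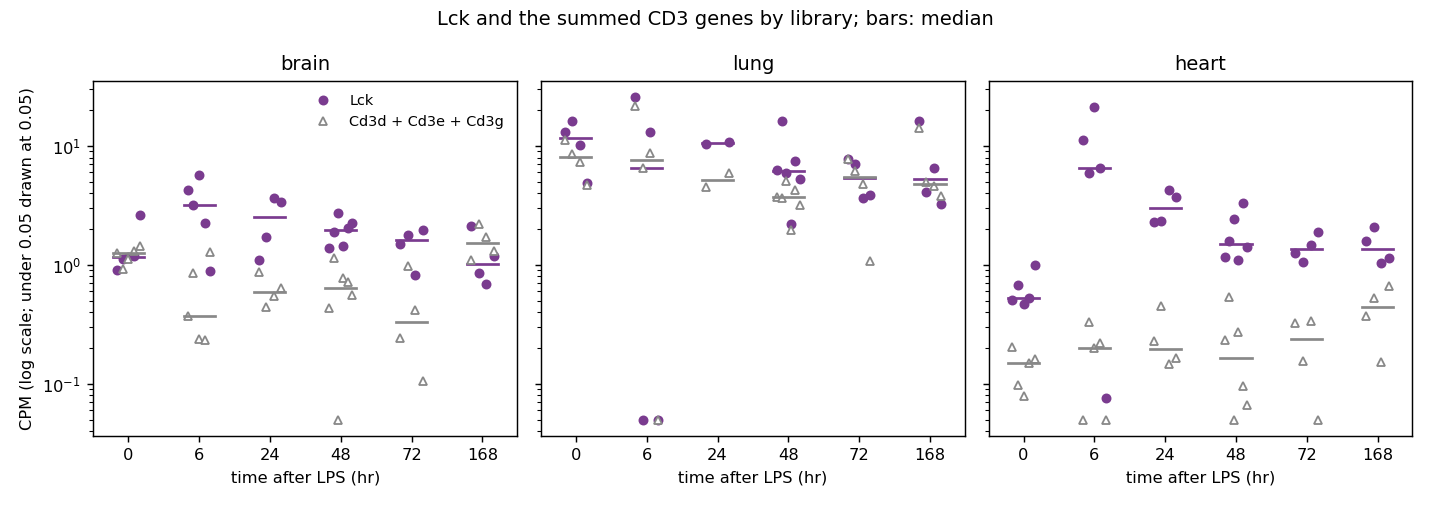
Lck and the sum of Cd3d, Cd3e and Cd3g in brain, lung and heart by time after LPS, in CPM on a log axis where values under 0.05 are drawn at 0.05; each point is 1 library and the bars are medians. In heart at 6 hr Lck reaches 5.97 to 21.3 CPM in 4 of 5 libraries while the summed CD3 genes stay low.

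The other 7 members were near their floor in heart and did not pass the filter on low counts. Cd3d, Cd3e, Cd3g, Cd79a, Cd79b and Ms4a1 had at most 9, 7, 6, 6, 7 and 4 counts in any heart library. Nkg7 had 2, 0, 0, 0 and 1 counts in the 5 baseline libraries and 12, 5, 6, 5 and 2 at 6 hr, or 0.152 to 0.539 CPM against 0 to 0.204 CPM. The ranges overlapped by replicate 5 at 6 hr, the library with little Lck. The fitted log2 fold change was 3.18 with no filter and 3.39 without 3 libraries of brain and heart that were low in the LPS response genes, and since Nkg7 entered these fits on 3 counts at baseline and through 6 hr, where it was high, no p is given. These are replicate 5 of heart and replicate 6 of brain at 6 hr, from 1 mouse by the file names, and replicate 1 of heart at 72 hr, which had 428 CPM of the summed response genes where the other 3 had 2197 to 6525 CPM. Lung replicate 4 at 6 hr, from the same mouse as the first pair, had 45.7 CPM, and replicates 1 and 2 at 48 hr and 1, 2 and 3 at 72 hr in lung had 172 to 465 CPM, as against 194 to 473 CPM in lung at baseline. These lung libraries were kept. Without the 3 libraries of brain and heart 8 changes of members in heart were called higher, as against 3, namely Lck at 6, 24 and 48 hr, Cd52 at 6, 24, 48 and 72 hr and Nkg7 at 6 hr. Among all genes tested in heart the calls for higher went up as well, to 27.8%, 13%, 5.75% and 2.27% at 6, 24, 48 and 72 hr, so that nothing particular to the members is read from this count.

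Among the 13 further NK and cytotoxic genes 5 were tested in heart. At 6 hr 3 of these were called higher, Ccl5, a chemokine that stimulated endothelium also makes, by 5.27 (SE 0.87, adjusted p = 0.00011), Prf1, the perforin gene, by 3.38 (SE 0.69, adjusted p = 0.00078), and the granzyme gene Gzmb, which had 0 counts in all baseline libraries and 27 at 6 hr. Gzmb thus entered the fit through the groups after LPS alone, so that its call is a description, with no p. Prf1 rose from 0.102 to 0.782 CPM at baseline to 0.837 to 5.57 CPM. The NK receptor genes Ncr1 and Klrd1 had 2 and 1 counts at baseline and 2 and 5 counts at 6 hr over all 5 heart libraries, and the T cell list of 24 genes had 9 tested, 1 higher (Ccr7, a lymph node homing receptor, 2.55, SE 1.03) and 3 lower (Cd2 −1.85, SE 0.58, Tcf7 −1.53, SE 0.52, and Thy1 −1.30, SE 0.41). Of 7 B cell genes tested Tnfrsf13c, the BAFF receptor, was higher by 4.53 (SE 1.02) and Ighm, the heavy chain of IgM, lower by 1.62 (log2 fold change −1.62, SE 0.57). Of all genes 22.4% were higher and 20.3% lower in this comparison, and with 9, 7 and 5 genes tested nothing particular to the lists is read from these counts.

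Other cell type lists moved in the same heart libraries at 6 hr. The sum of 9 neutrophil genes was 32.4 to 58.0 CPM in the 4 libraries with high Lck, 0.837 CPM in replicate 5 and 0.715 to 1.5 CPM at baseline, and 6 of 7 tested were higher, among them the calprotectin genes S100a8 and S100a9, while Ly6g, a defining surface marker, had 0 counts at baseline and 2 at 6 hr. The sum of 4 platelet genes was 52.5 to 100.1 CPM in these 4 libraries, 3.96 CPM in replicate 5 and 4.49 to 8.63 CPM at baseline, most of it Pf4, whereas Ppbp and Gp9 had 8 and 4 counts at 6 hr after 12 and 11. The sum of 10 endothelial genes was 3033 to 6163 CPM in the 4 libraries, 11475 CPM in replicate 5 and 11114 to 12242 CPM at baseline, with 8 of 10 lower. The sum of monocyte and macrophage genes was 75.9 to 139.7 CPM in the 4 libraries, 37.8 CPM in replicate 5 and 33.7 to 57.0 CPM at baseline. The pan-leukocyte sum was 7.69 to 20.2 CPM at 6 hr and 8.51 to 15.5 CPM at baseline. The part of these cell types in the changes of Lck and the cytotoxic genes was not tested.

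In brain ECs the B cell gene Cd79a fell after LPS and stood at its baseline level again at 168 hr. From 2.42 to 6.39 CPM at baseline it was at 1.17, 0.569, 0.279, 1.52 and 3.93 CPM at 6 hr (log2 fold change −1.37, SE 0.45, adjusted p = 0.072, edgeR; −1.89 and 0.0076 without replicate 6, which had 689 CPM of the summed LPS response genes, where the other 4 had 9272 to 11859.8 CPM and the baseline libraries 153 to 349 CPM). Over all libraries this fall passed with DESeq2 (adjusted p = 0.031), limma-voom (0.042), no low-count filter (0.023) and the replicate block (0.0094). It then stood at 1.87, 0.561, 0.918 and 0.740 CPM at 24 hr (−2.07, SE 0.54, adjusted p = 0.016; 4.66% of all genes were lower and 6.52% higher). At 48 hr the 6 libraries ranged from 0.421 to 0.925 CPM with a median of 0.542 (−2.79, SE 0.48, adjusted p = 0.00078; 6.12% lower).

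All brain libraries at 24, 48 and 72 hr lay below all at baseline. At 72 hr the libraries had 1.46, 1.11, 1.25 and 0.491 CPM (−1.87, SE 0.50, adjusted p = 0.035; 0.546% lower). At 168 hr they had 3.04, 6.25, 7.29 and 5.81 CPM, which overlapped with baseline (0.26, SE 0.53, adjusted p = 0.94; 0% of all genes moved) and exceeded every library at 72 hr (2.13, SE 0.57, adjusted p = 0.024; 3.48% higher). The change at 24 hr missed the threshold without 0 hr replicate 1 (adjusted p = 0.052) or 24 hr replicate 2 (0.076), that at 72 hr without any 1 of 6 libraries (up to 0.15, without 72 hr replicate 5), and the return from 72 to 168 hr without any 1 of 5 (up to 0.19). The change at 48 hr passed with each library left out. In one fit of all 3 tissues the changes at 24 and at 72 hr missed the threshold (adjusted p = 0.24 each). That at 24 hr also missed it with the replicate block (0.0501), and that at 72 hr without library series (0.073). With the libraries under 3% of reads on genes added, the change at 72 hr (0.070) and the return to 168 hr (0.059) missed it. The fall at 48 hr was also seen within each library series that holds both time points, from 3.05 and 6.39 to 0.421 and 0.447 CPM in series 1, and from 2.42 to 3.82 to 0.495 and 0.605 CPM in series 2.

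Whether Cd79b fell as well cannot be judged. Its brain levels stayed between 0 and 0.878 CPM at all time points, with no change that passed the test (edgeR, adjusted p from 0.32 to 0.93 against baseline). At baseline Cd79b had 23 counts over 5 brain libraries, from 0 to 11 in each. A fall as large as that of Cd79a could hardly be seen from there. Cd79a made up 60.9% of the Cd79a and Cd79b counts at 48 hr (78 of 128, 95% Wilson interval 52.3 to 69.0) and 97.7% at 168 hr (517 of 529, 96.1 to 98.7). These intervals cover counting error only, and no test was run. Single libraries ran from 38.5% to 100% at 48 hr and from 94.3% to 98.7% at 168 hr. Replicates 1 and 2 at 48 hr were lowest, at 43.8% and 38.5%, with Cd79b at 0.778 and 0.792 CPM. Cd3e, the other member that was high in brain at baseline, had medians of 0.945, 0.199, 0.415, 0.590, 0.268 and 1.31 CPM from 0 to 168 hr. Its changes against baseline did not pass the test, with the lowest adjusted p at 72 hr (log2 fold change −1.69, SE 0.69, adjusted p = 0.21), nor did its change from 72 to 168 hr (2.12, SE 0.77, adjusted p = 0.083). Without 6 hr replicate 6 its fall at 6 hr (−2.16, adjusted p = 0.028) and its rise from 72 to 168 hr (2.39, adjusted p = 0.027) passed, and DESeq2 called the rise over all libraries (2.09, adjusted p = 0.032). Summed genes of monocytes and macrophages in brain ran from 49.4 to 167 CPM at baseline and from 422 to 717 CPM at 48 hr. The endothelial sum ran from 2162 to 4791 CPM and from 4046 to 6120 CPM. The summed neuronal genes in the brain libraries had medians of 2727 CPM at baseline, 3837 CPM at 6 hr, 822 CPM at 48 hr and 811 CPM at 168 hr, with 1656 CPM at 72 hr. At 24 hr they ran from 511 to 3640 CPM. The part of these lists in the course of Cd79a was not tested. The time points hold different library series, and at 168 hr none is of series 2, in which the baseline neuronal sums were 2727 to 4072 CPM.

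**Figure D3:**
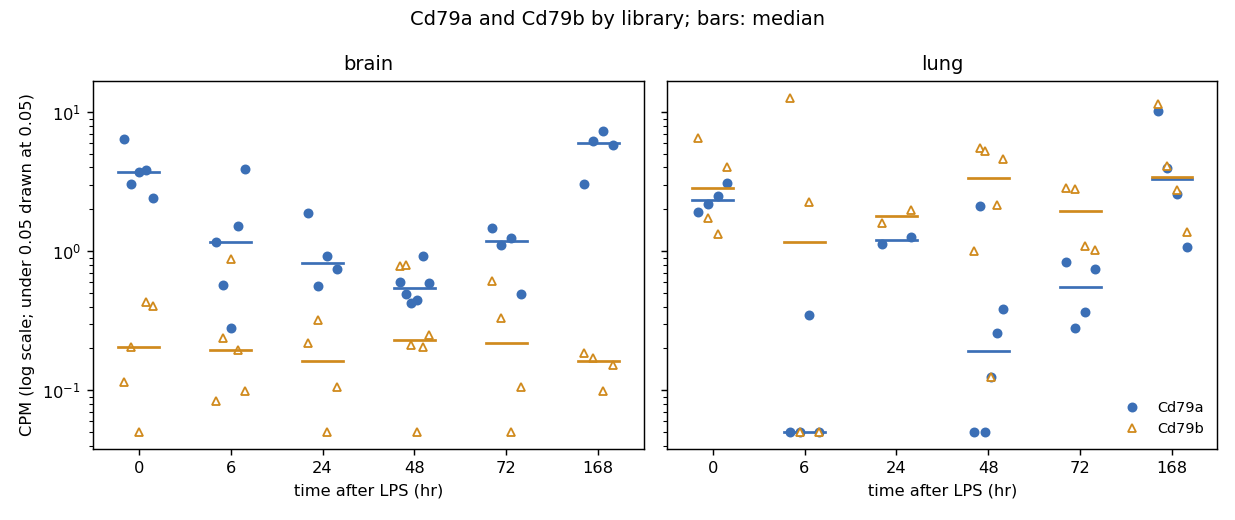
Cd79a and Cd79b by time after LPS in brain and lung, in CPM on a log axis where values under 0.05 are drawn at 0.05. Each point is 1 library and the bars are medians. In brain Cd79a falls from 2.42 to 6.39 CPM at baseline to 0.421 to 0.925 CPM at 48 hr and returns to 3.04 to 7.29 CPM at 168 hr, while Cd79b stays at or under 0.878 CPM.

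Cd52 rose at 48 hr in brain and heart ECs, though not in every library. In brain it was at 19.1, 14.9, 1.89, 12.8, 0.993 and 2.48 CPM in replicates 1, 2, 3, 4, 6 and 7, after 0.457 to 2.51 CPM at baseline, with a log2 fold change of 2.96 (SE 0.49, adjusted p = 0.00054, edgeR; 8.11% of all genes higher). In heart the same numbers had 6.45, 9.18, 1.10, 6.54, 0.256 and 0.669 CPM, after 0.337 to 0.880 CPM at baseline (2.96, SE 0.61, adjusted p = 0.0055; 3.08% higher, 1.11% lower). Replicates 1, 2 and 4 were thus high in both tissues and replicates 3, 6 and 7 low in both, and by the names of the deposited files libraries with the same number at 48 hr come from the same mouse.

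The same libraries differed in other ways. The pan-leukocyte sum at 48 hr was 232, 205 and 108 CPM in brain replicates 1, 2 and 4 and 29.0 to 54.1 CPM in the other three, and in heart 45.6, 69.7 and 60.6 CPM against 13.7 to 24.6 CPM. The sum of the LPS response genes was low where Cd52 was high, at 1017 to 13391 CPM in brain replicates 1, 2 and 4 and 29643 to 36348 CPM in the other three, and at 2059 to 6812 CPM against 16070 to 21197 CPM in heart. The part of leukocyte RNA and of the course of the response in the Cd52 change was not tested. By library series, both brain libraries of series 2 were high (14.9 and 19.1 CPM), both of series 4 low (0.993 and 2.48 CPM), and those of series 1 split (1.89 and 12.8 CPM).

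In brain Cd52 was still raised at 72 hr, at 12.5, 12.2, 2.91 and 5.40 CPM, where all 4 libraries exceeded the highest baseline library (2.84, SE 0.52, adjusted p = 0.0016, with 2.98% of all genes higher). Without library series in the model this call was lost (2.42, adjusted p = 0.097). At 168 hr Cd52 was back at 0.257 to 2.76 CPM, below 72 hr by 1.94 on the log2 scale (SE 0.55, adjusted p = 0.031, with 4.81% of all genes lower). That call was lost without 72 hr replicate 5 (adjusted p = 0.27) or 168 hr replicate 2, 4 or 5. It was also lost without library series (adjusted p = 0.061), with the libraries under 3% of reads on genes added (0.089) and in one fit of all 3 tissues (0.053). In heart Cd52 was 1.10, 2.89, 4.28 and 1.04 CPM at 72 hr, each above baseline, but the change did not pass the test (2.26, SE 0.64, adjusted p = 0.17). It passed without 72 hr replicate 1, the library low in LPS response genes (2.62, adjusted p = 0.039). Over all libraries DESeq2 called Cd52 in heart higher at 72 hr (2.24, adjusted p = 0.033), at 6 hr (1.53, adjusted p = 0.024) and at 24 hr (1.93, adjusted p = 0.023). The earlier brain levels, 1.08 to 4.45 CPM at 6 hr and 0.881 to 5.13 CPM at 24 hr, overlapped with baseline (adjusted p = 0.30 and 0.077), and the change at 24 hr passed with DESeq2 (1.55, adjusted p = 0.031) and with no low-count filter (1.54, adjusted p = 0.011).

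**Figure D4:**
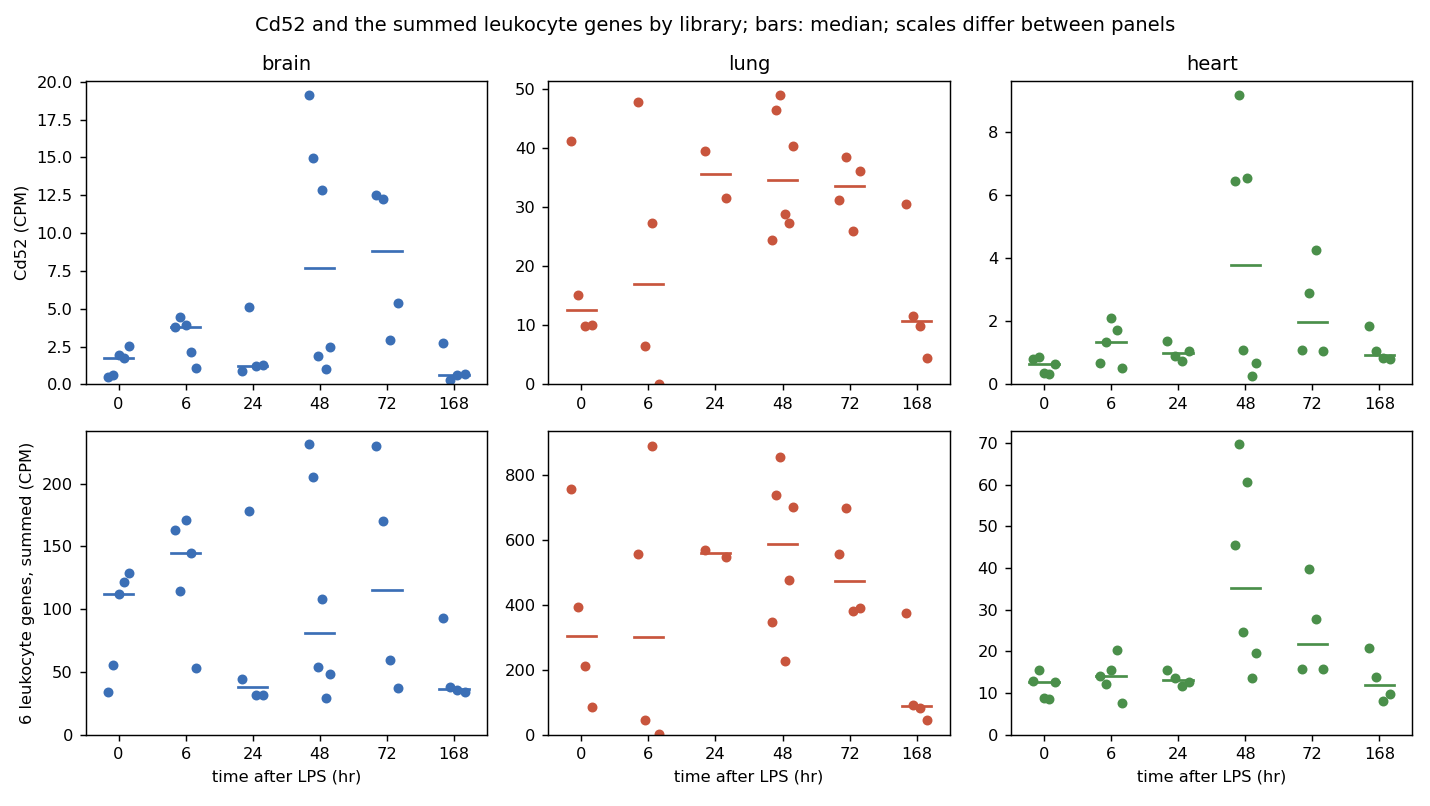
Cd52 (upper panels) and the summed level of 6 pan-leukocyte genes (lower panels) by time after LPS in brain, lung and heart, in CPM on linear axes that differ between panels; each point is 1 library and the bars are medians. At 48 hr the brain libraries split into 3 at 12.8 to 19.1 CPM and 3 at 0.993 to 2.48 CPM of Cd52, and the leukocyte sum splits the same way.

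In lung ECs, where all 9 members passed the filter on low counts, 0 changes against baseline passed the test in edgeR at any time point; 2 of the 45 had an unadjusted p under 0.05. Of the 17058 genes tested 2.56% were higher and 2.27% lower at 6 hr, 0.363% and 0.0117% at 24 hr, 0.428% and 0.17% at 48 hr, 0.17% and 0.0234% at 72 hr, and 0% and 0.0117% at 168 hr. The first of the 2 was Cd79a at 6 hr, with 0 counts in 3 libraries and 0.349 CPM (14 counts) in the deepest, after 1.91 to 3.11 CPM at baseline (log2 fold change −4.07, SE 1.57, p = 0.014, adjusted p = 0.12). In the 3 libraries at 0 the floor of 3 counts lies at 1.12, 1.09 and 10.5 CPM, below the baseline range in replicates 1 and 2 and above it in replicate 4. The other was Cd52 at 48 hr, at 24.5, 46.4, 48.9, 28.7, 27.3 and 40.3 CPM after 9.88 to 41.2 CPM (1.37, SE 0.59, p = 0.027, adjusted p = 0.41).

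The lung libraries of a group lay far apart in most members. Lck at 6 hr was 25.8, 0, 13.1 and 0 CPM, and Ms4a1 13.1, 0, 0.698 and 0 CPM, where replicate 1 also had 5288 CPM of the summed B cell list and the other three at most 286 CPM. At 48 hr replicate 2 held the highest levels of Lck (16.2 CPM), Cd79a (2.11 CPM), Cd79b (5.53 CPM), Ms4a1 (6.19 CPM) and Nkg7 (5.14 CPM), where its pan-leukocyte sum was 739 CPM and the 6 libraries ranged from 228 to 854 CPM. At 168 hr Cd79a was at 10.3, 3.99, 2.58 and 1.07 CPM, Cd79b at 11.5, 4.08, 2.74 and 1.36 CPM, and Nkg7 at 4.82, 2.47, 2.61 and 1.10 CPM. Replicate 1 was highest in each, and replicate 5 lowest.

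The CD3 genes overlapped between time points in lung. Cd3d ran from 0 to 17.2 CPM at 6 hr and from 0.0838 to 6.28 CPM later, Cd3e from 0 to 2.09 CPM and Cd3g from 0 to 6.28 CPM over all time points after LPS. When the 3 tissues were fitted together, with 1 shared estimate of the spread, 3 changes in lung passed, Cd3d higher at 6 hr (2.42, adjusted p = 0.042) and Cd79a lower at 6 hr (−3.09, adjusted p = 0.015) and at 48 hr (−2.01, adjusted p = 0.035).

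Whether the tissues changed differently was tested on the difference itself, over 22007 genes. At 6 hr the Lck change in lung was below the mean of the brain and heart changes by 2.42 on the log2 scale (SE 0.84, adjusted p = 0.034, edgeR; 11.7% of all genes were lower and 7.38% higher), while the other 8 members did not pass. The Lck call was lost with RLE scaling (−2.08, adjusted p = 0.081) and kept with the mouse as a block. It was also lost without the 4 lung libraries under 10% of reads on genes (−2.60, adjusted p = 0.25), which leaves 1 lung library at 6 hr, assumed to vary like the other groups. The change of Lck in heart against that in brain at 6 hr was 2.82 (SE 0.88) and did not pass (adjusted p = 0.13). This model takes no account of shared mice, and with the mouse as a block, chosen after the data had been seen, 0 differences of members between heart and brain changes passed as well. None of the members passed for heart against brain in the main edgeR fit, where at 6 hr 0.532% of all genes were higher and 0.105% lower, although 7 of the 45 differences over the 5 time points had an unadjusted p under 0.05. DESeq2 called 1 of them, Lck at 6 hr (2.77, adjusted p = 0.0497), which edgeR also called with no low-count filter (2.92, adjusted p = 0.023). It passed in edgeR as well without the 3 libraries of brain and heart low in LPS response genes (2.98, adjusted p = 0.015), a choice made after the data had been seen. At 24, 48, 72 and 168 hr no member passed. The share of all genes higher in lung was then 2.25%, 1.55%, 0.164% and 0.0818%, and lower 0.368%, 0.718%, 0.382% and 0.332%. For heart against brain 0.182%, 0.209%, 0.0227% and 0% were higher and 0.145%, 0.254%, 0.295% and 0% lower. For Cd79a at 48 hr the change in heart exceeded that in brain by 2.97 (SE 1.04, adjusted p = 0.29), with 1 to 3 counts of Cd79a in each heart library at baseline.

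**Figure D5:**
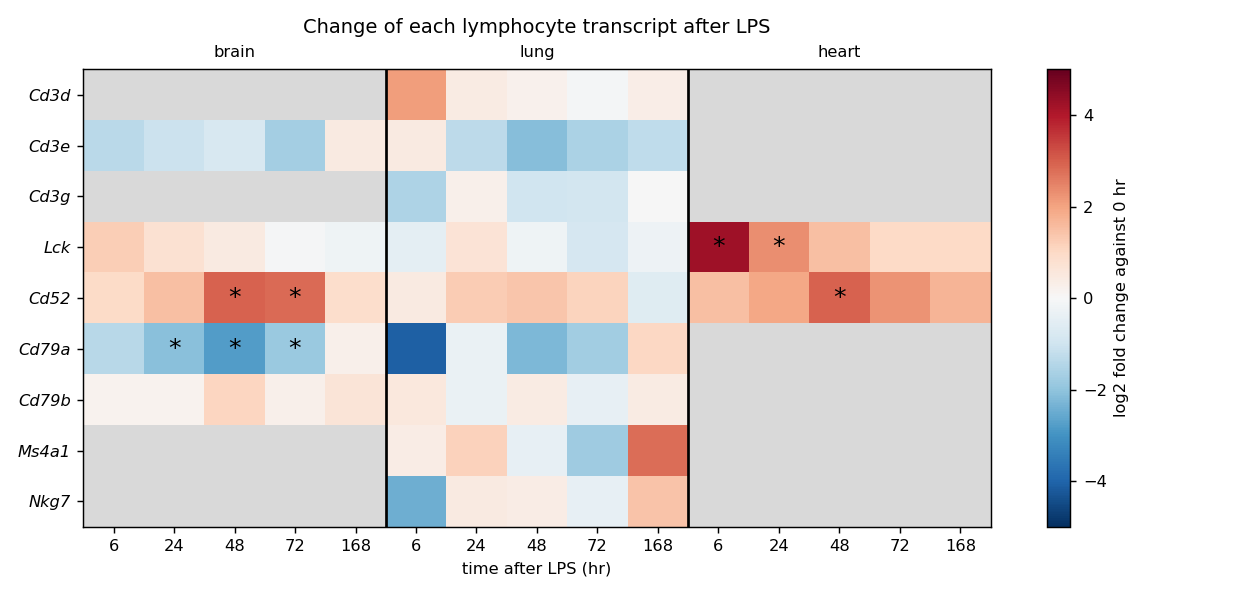
Log2 fold change of each of the 9 lymphocyte transcripts against 0 hr in brain, lung and heart at 6 to 168 hr after LPS, as a colour scale; an asterisk marks an adjusted p under 0.05 and grey a gene that did not pass the filter on low counts in that tissue. The marked cells are Cd79a in brain at 24, 48 and 72 hr, Cd52 in brain at 48 and 72 hr, Lck in heart at 6 and 24 hr and Cd52 in heart at 48 hr.

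Of the lists of further lymphocyte genes in brain after LPS, 17 T cell genes were tested, of which 2 were higher and 1 lower at 6 hr (4.21% and 2.23% of all genes), 2 higher at 24 hr (6.52%), and 2 higher and 1 lower at 48 hr (8.11% and 6.12%). Their medians were −0.08, −0.03 and 0.13, beside 0.00, −0.03 and 0.02 over all genes. Cd247, the zeta chain of the T cell receptor that NK cells also use, was higher by 2.25 (SE 0.55) at 6 hr, 2.93 (SE 0.57) at 24 hr and 2.56 (SE 0.54) at 48 hr. Of 10 B cell genes Cd72, an inhibitory coreceptor, was higher by 1.20 to 3.16 from 6 to 72 hr, and Ighm lower at 72 hr by 1.45 (log2 fold change −1.45, SE 0.41). Ccl5 was the 1 of 4 NK and cytotoxic genes that rose, by 7.16 (SE 1.03) at 6 hr and 7.62 (SE 1.07) at 24 hr. In lung 0 of 23 T cell and 0 of 19 B cell genes passed at any time point (edgeR), where up to 3 and up to 5 of them had an unadjusted p under 0.05 at a time point, and of 10 NK and cytotoxic genes Ccl5 at 6 hr (4.13, SE 0.79, adjusted p = 0.0036).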

How the data were processed

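Ribosome-bound EC RNA was sequenced from brain, lung and heart. Reads were aligned by the authors to mm10 (STAR 2.4.2) and counted per gene (HTSeq 0.6.1), and the authors deposited raw counts per sequencing run, with rows for reads on no gene kept apart. The annotation release and strand setting are not given in the sources used here. Runs were summed to libraries, and tissue, time point and replicate number were taken from the labels. Mice and a library series from 1 to 4 were read from patterns in the file names, since batches are not labelled. The labels do not say more of replicates than their numbers, so p-values measure the spread between these libraries. Within a tissue numbers did not pair libraries of different time points by the check given in the closing section. Across tissues the file names put libraries of a time point on shared mice, and at 0 hr deviations of such libraries from their group means correlated with a median of 0.13 over 11 pairs (6 over 0.1), against −0.01 over 54 pairs of different mice, so the mouse was also used as a block.

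Counts were tested in edgeR 4.0.16 (R 4.3.3) with filterByExpr, TMM scaling and library series as a covariate, and p was adjusted over all genes. SE is the size of the log2 fold change over the square root of F. Levels of single libraries are unscaled CPM. Means of list sums use CPM summed over the list. Shares were compared by exact two-sided permutation over libraries with Python 3.11.15 and scipy 1.17.1. The fits were tried before use on simulated counts with a dispersion of 0.1 and no difference between library series. Of 2-fold changes 27.6% to 38.9% were recovered, and of 8-fold changes 95.7% to 100%. The spread of the real libraries was not simulated, so these rates need not hold for them. Positions are those of GENCODE for GRCm38, which may differ from the release of the authors. Sequences are from RefSeq, which gave promoters for 6 of the 9 members.

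The members, lists and alternatives were chosen with earlier results of these data known. All members were described. From each further list at most the 4 genes with the highest absolute log2 fold change past the threshold were named in a comparison. Alternatives were DESeq2 1.42.0, limma-voom (limma 3.58.1), RLE scaling, no filter, no series, all libraries, other groups fitted together, replicate blocks, a prior count of 0.5 and each replicate left out.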

Additional observations from a re-analysis of the deposited data

Results flagged for a closer look

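In 20 of 91 member groups tested (22.0%, where chance gives about 1 in 20) 1 library stood apart by Dixon's criterion, among groups of 4 to 10 libraries with a highest count of at least 10. In lung these were replicate 1 at 168 hr for Cd3d and for Cd3g (6.28 CPM each, the next at 1.99), replicate 1 at 72 hr for Cd3e (0 CPM, the others 0.474 to 0.549), replicate 1 at baseline for Cd52 (41.2 CPM) and replicate 1 at 6 hr for Ms4a1 (13.1 CPM). Replicate 3 of lung at 6 hr held the only counts of Cd79a (0.349 CPM) and Nkg7 (0.997 CPM) in that group. Replicate 2 of lung at 48 hr stood apart for Lck (16.2 CPM), Cd79a (2.11 CPM), Ms4a1 (6.19 CPM) and Nkg7 (5.14 CPM). In brain at baseline replicate 5 stood apart for Lck (2.65 CPM) and Cd3g (0.449 CPM). In brain after LPS these were replicate 6 at 6 hr for Cd3e (1.18 CPM), replicate 3 at 6 hr for Cd79b (0.878 CPM), replicate 2 at 6 hr for Nkg7 (0.474 CPM), replicate 2 at 24 hr for Cd52 (5.13 CPM), replicate 6 at 48 hr for Cd79a (0.925 CPM) and replicate 1 at 168 hr for Cd52 (2.76 CPM). In heart replicate 2 at 48 hr stood apart for Nkg7 (0.579 CPM).

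The change of Lck at 6 hr differed between tissues by a test of the difference, with lung below the mean of brain and heart (log2 difference −2.42, adjusted p = 0.034, edgeR). The call was lost with RLE scaling (−2.08, adjusted p = 0.081) and without the lung libraries under 10% of reads on genes (−2.60, adjusted p = 0.25), where 1 lung library is left at 6 hr and is assumed to vary like the other groups. At 6 hr 2 of the 4 lung libraries had 0 counts of Lck, 1 of them with a floor of 10.5 CPM.

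Counts also appeared in brain libraries left out for a low share of reads on genes. Replicate 4 at 72 hr had 37 counts of Cd3e (53.9 CPM, beside 29.2 CPM in the left-out library at baseline), and replicate 5 at 48 hr 4 counts of Cd79a (7.60 CPM, beside 6.87 CPM). The kept brain libraries at baseline had 0.407 to 1.26 CPM of Cd3e. Over the 6 left-out brain libraries Cd3e had 69 counts, while Cd3d, Cd3g and Lck had 0. In the left-out lung and heart libraries Cd3e had 0 counts. The source of the Cd3e counts in brain was not tested.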

How the results depend on the processing

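Under other settings, repeats of a member call stayed past the threshold 403 times and missed it 14 times, and with 1 library left out 768 and 30 times. None changed direction. With the libraries under 3% of reads on genes added, the members called at baseline fell from 8 to 4, both for higher in lung and for lower in heart, since Cd3d, Cd3g, Cd79b and Nkg7 no longer passed the filter on low counts and were not tested. Brain calls for higher after LPS went from 2 to 4 with DESeq2 and with no low-count filter, and to 1 without library series in the model. Of all genes in brain 4.21%, 6.52%, 8.11% and 2.98% were higher at 6, 24, 48 and 72 hr. With DESeq2 these shares were 5.74%, 9.39%, 12.1% and 4.48%, and with no filter 3.21%, 4.61%, 4.98% and 2.57%. Without series they were 1.98%, 9.47%, 9.3% and 1.76%. Brain calls for lower went from 3 to 5 without the 3 libraries of brain and heart low in LPS response genes (chosen after seeing the data) and to 1 in one fit of all 3 tissues, where lung calls went from 0 to 1 higher and 2 lower. Without the 3 libraries 6.71%, 5.91%, 7.15% and 1.05% of all genes in brain were lower at 6, 24, 48 and 72 hr. With them these shares were 2.23%, 4.66%, 6.12% and 0.546%. Heart calls for higher went from 3 to 6 with DESeq2 and to 8 with no filter and without the 3 libraries. Of all genes in heart 22.4%, 9.07%, 3.08% and 0.275% were higher at 6, 24, 48 and 72 hr. With DESeq2 these shares were 25.6%, 11.8%, 6% and 1.04%, and with no filter 11.3%, 5.62%, 3.21% and 1%. Nothing particular to the members is read from these counts. Calls for the lung change against the mean of the others went from 0 to 1 higher with DESeq2, where 14.7% of all genes were higher at 6 hr, after 7.38%. They went from 1 lower to 0 with RLE scaling, and to 2 with no filter and without the 3 libraries. At 6 hr 9.56%, 5.91% and 13.8% of all genes were lower in these fits, after 11.7%. Without the lung libraries under 10% of reads on genes, which leaves 1 lung library at 6 hr, the Lck difference was −2.60. Calls for heart against brain went from 0 to 1 higher with DESeq2, with no filter and without the 3 libraries. At 6 hr 1.4%, 1.06% and 2.23% of all genes were higher in these fits, after 0.532%. Without those lung libraries the Lck difference of heart from brain at 6 hr was 2.89. With 1 library left out, brain lower calls ran from 1 (without 0 hr replicate 1) to 5 (without 6 hr replicate 6), heart higher calls from 2 to 6 (without 6 hr replicate 5 or 72 hr replicate 1) and lung lower calls from 0 to 1 (without 6 hr replicate 3, the only library of its group with counts of Cd79a). The causes of the changes after LPS were not tested. With a prior count of 0.5 in place of 2, the log2 CPM of 9 of 27 members and tissues at baseline moved by more than 1 SD.

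Same-numbered libraries of a tissue did not deviate together, with a median correlation of 0.02 over 151 pairs and 54 over 0.1, so the numbers mark no pairs within a tissue. Across tissues at 0 hr the block by mouse, read from the file names, gave 8 higher in lung, 8 lower in heart, and 2 higher and 3 lower in brain, as without it, and added Lck lower in heart than in brain (−0.96, adjusted p = 0.025). For the differences between tissues after LPS, where it was added after seeing the data, it gave the same counts of calls as without it. With the replicate block Cd79a in brain at 24 hr (−1.85, adjusted p = 0.0501) and Lck in heart at 24 hr (2.17, adjusted p = 0.12) missed the threshold, and the other calls kept it. At 6 hr Cd79a in brain (adjusted p = 0.0094) and Cd52 in heart (adjusted p = 0.044) passed it under this block. So did Lck at baseline (heart below brain, −0.96, adjusted p = 0.024). The baseline value of Cd79b, lower in brain, was −1.83 there, given with no p since Cd79b was then high in lung alone. The libraries under 3% of reads on genes were exactly library series 3, so that leaving this series out gave the reported values. The joint fit of the tissues was not repeated with each library left out. Depth limits the lung values: at 6 hr 3 counts stand for 1.09 to 10.5 CPM in 3 of 4 libraries.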

Other observations

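Over the 24 lung libraries, after removal of the library series means, the members' log2 CPM varied together to different degrees. Spearman's rho was 0.68 for Cd3g with Lck and with Cd3e and 0.15 for Cd3g with Cd3d, although Cd3g and Cd3d start side by side. It was 0.71 for Lck with Cd79b, 0.70 for Cd79a with Nkg7 and 0.34 for Cd79a with Cd79b, its partner in the B cell receptor. Among the 11098 genes whose mean log2 CPM in lung was 1 or more, those most like Cd3e were Usp11 (rho 0.85), Cd2, a T cell adhesion receptor (0.84), Nts (0.84), Irf4, a transcription factor of activated lymphocytes (0.82), and Prkar1b (0.81). For Cd79a they were Col4a5 (0.86), Pcdh18, Rab2b, Podn and Plcb2, and for Nkg7 Zfp251 (0.88), Ttc5, Sirt2, Dis3l2 and Ift140. These correlations share depth and library quality, have no p, and are descriptions of these libraries.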
